A study of Mus musculus with 6 samples.

Results

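The 46 genes described here carry a cell through DNA replication and division, and they are 46 of the 24411 gene symbols counted in the series. They were chosen by name, with no measured value in the rule but with earlier results of these data known. Each of them passed the filter on low counts. By role, 9 of them license replication origins, 5 synthesise DNA at the fork and 3 supply nucleotides, which together make 17 S phase genes. A further 9 control entry into the cycle in G1, 2 encode inhibitors of cyclin-dependent kinases, and 18 act in or mark G2 and mitosis.

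Bulk RNA was sequenced from 3 wild-type mouse samples (WT) and 3 samples of an Atoh7 Large Enhancer knockout (enhancer KO), all at postnatal day 18. Atoh7 is a proneural transcription factor gene best known for its part in the making of retinal ganglion cells. The protocol and design text name cerebellum, but retina is entered as source and tissue. Strain, sex, the extent of the deletion and the number of founder lines are not given in the labels, and no animal or litter is named, so p-values measure the spread between these samples only.

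A cell prepares to replicate by loading the MCM helicase onto origins in G1, fires those origins in S phase under kinase control, and then condenses and separates its chromosomes in mitosis. The retinoblastoma proteins and E2F factors gate the S phase genes, whereas the mitotic genes are held down outside G2 and mitosis by the DREAM complex through a CHR element. In mouse cerebellum, granule cell precursors of the external granule layer proliferate strongly in early postnatal life and then run out, after which dividing cells are mainly glial precursors and other non-neuronal cells. Many replication and repair genes are also transcribed at a low level in cells that do not divide.

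Gene reads per library numbered 22812075 to 33076111 for WT and 36849747 to 40858310 for enhancer KO. Expression is given as CPM, the reads of a gene relative to the scaled library size, on which 1 read is worth 0.0240 to 0.0488 CPM. Reads outside annotated exons made up 32.4% ± 1.56 of all WT reads and 17.4% ± 0.735 of all enhancer KO reads (SD, n = 3 each), with every WT library above every enhancer KO library (exact two-sided permutation p = 0.1, the smallest that 3 against 3 can give). WT replicate 2 stood apart by 12.9% of gene reads in the ribosomal RNA gene Rn45s and 20.4% unmapped reads. WT replicate 1 stood apart in sex-linked transcripts: Xist was at 1054 CPM there and at 0.743 to 1.37 CPM in the other 5 libraries, and the Y-linked Ddx3y was at 0 there and at 91.4 to 106 CPM in the others. Without WT replicate 1 the 5 calls among the 46 genes were kept, and Cdkn1a joined them.

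Summed markers of granule neurons reached 2281 to 2751 CPM in WT and 1328 to 1696 CPM in enhancer KO, with 9 of 9 tested lower. Purkinje cell markers reached 3481 to 4276 CPM and 4899 to 5244 CPM, with 3 of 5 higher. Photoreceptor markers summed to no more than 2.04 CPM in any library. The libraries thus carried cerebellar markers, with the retinal ones near 0. Among lists of cells that can divide at this age, the granule precursor list, which also takes in genes of their early descendants, summed to 631 to 678 CPM in WT. In enhancer KO it summed to 547 to 565 CPM (2 of 9 tested lower, Boc and Cntn2). Cntn2 went from 316 to 232 CPM and Boc from 63.2 to 40.3 CPM. The other genes tested, among them Gli1, Gli2, Ptch1 and Hhip, did not pass, and the defining precursor gene Atoh1 was under the filter on low counts. Oligodendrocyte precursor markers went from 716 to 756 CPM to 656 to 699 CPM (3 of 9 lower, 1 higher). Microglial markers went from 289 to 301 CPM to 317 to 377 CPM (5 of 10 higher), astroglial markers from 2068 to 2520 CPM to 2473 to 2782 CPM (2 of 8 higher) and endothelial markers from 198 to 230 CPM to 150 to 175 CPM (7 of 10 lower). Of the erythroid markers, Hbb-bs, Hbb-bt, Hba-a1 and Hba-a2 were listed at 0. The remaining marker of that list, Alas2, had reads, and its mean went from 17.6 to 28.0 CPM. Every enhancer KO library lay above the WT ones for Alas2, but the gene did not pass the test (log2 fold change 0.69, edgeR adjusted p = 0.211). Among all genes tested 31.3% were called (17.9% lower, 13.4% higher). Granule precursor markers were 22.2% lower and 0 higher, and astroglial markers 25.0% higher and 0 lower. Each of these shares rests on 2 genes. The part of these values, and of the reads outside exons, in the results on the 46 genes was not tested, and in bulk RNA fewer cells of a type and less RNA per cell cannot be told apart.

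The promoters of the S phase and mitotic genes were described by the motifs they hold. RefSeq promoter windows, 250 bases before to 50 after a start site on GRCm38.p6, were matched for 38 of the 46 genes (41 windows). On both strands, E2F motifs (the letters TTCCCGC, also TTGGCGC, also TTCGCGC and also TTGCCGC, some of which overlap each other on opposite strands), the CHR motif (TTTGAA) and the CCAAT box (CCAAT) were searched. The 17 S phase windows belong to 15 genes, as Fen1 and Mcm7 are repeated and Mcm4 and Gmnn have none, and the 15 mitotic windows to 15 genes. An E2F motif was found in 12 of 17 S phase windows (70.6%) and 3 of 15 mitotic windows (20%), against 9.57% of all 32851 windows. The CHR motif was found in 2 of 17 S phase windows (11.8%) and 11 of 15 mitotic windows (73.3%), against 17.9% of all. CCAAT was found in 11 of 17 (64.7%) and 14 of 15 (93.3%), against 37.4% of all. A match is a description of the letters and not a site of binding.

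Stretches ahead of the first annotated base are shown for an S phase gene, for 2 mitotic genes and for Dna2, which had the steepest fold difference of the 46 genes. They were picked after the motifs had been seen, and capitals mark E2F or CHR matches on either strand. The Mcm6 stretch lies at chr1:128359706-128359955 on the minus strand, with 4 E2F matches in 2 overlapping pairs. Top2a lies at chr11:99024200-99024439 on the minus strand and Mki67 at chr7:135716451-135716629 on the minus strand, each with 2 CHR matches. The Dna2 stretch lies at chr10:62946779-62946982 on the plus strand, and neither it nor the whole Dna2 window held any of the 3 motifs. Of the 5 genes called changed, 3 had an E2F motif in their window, 0 a CHR motif and 3 a CCAAT box.
Mcm6: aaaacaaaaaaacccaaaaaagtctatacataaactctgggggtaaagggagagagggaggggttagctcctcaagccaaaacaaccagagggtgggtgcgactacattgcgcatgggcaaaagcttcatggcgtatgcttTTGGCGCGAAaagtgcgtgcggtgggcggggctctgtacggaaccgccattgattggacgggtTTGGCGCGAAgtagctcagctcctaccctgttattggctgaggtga
Top2a: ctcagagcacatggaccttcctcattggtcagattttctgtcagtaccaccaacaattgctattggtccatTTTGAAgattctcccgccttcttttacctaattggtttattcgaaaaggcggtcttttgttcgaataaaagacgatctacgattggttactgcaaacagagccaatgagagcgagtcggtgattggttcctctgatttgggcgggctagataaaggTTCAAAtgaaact
Mki67: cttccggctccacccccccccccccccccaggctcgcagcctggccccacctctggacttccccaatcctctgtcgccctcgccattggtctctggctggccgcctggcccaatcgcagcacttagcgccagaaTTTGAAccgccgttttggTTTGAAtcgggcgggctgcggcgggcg
Dna2: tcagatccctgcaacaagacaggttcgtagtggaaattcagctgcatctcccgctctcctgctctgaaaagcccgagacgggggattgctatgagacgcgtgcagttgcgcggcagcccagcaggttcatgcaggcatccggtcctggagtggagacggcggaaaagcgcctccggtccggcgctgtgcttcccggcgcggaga

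The groups were tested with edgeR (quasi-likelihood), p-values being adjusted by the Benjamini-Hochberg method over the 15846 genes tested and a threshold of 0.05. Of the 46 genes, 5 were lower (Dna2, Cdc6, Pola1, Prim1 and Cdkn1b) and 0 higher, which is 10.9% of them. Among all genes tested 31.3% were called, 17.9% lower and 13.4% higher, so the 46 genes as a set were called at a lower rate than genes at large in both directions. The roles differed in this. Of the 17 S phase genes 4 were called lower (23.5%), above the 17.9% of all genes, and of the 18 mitotic genes 0. The S phase share rests on 4 genes, and its difference from all genes was not tested. The balance over all genes turned with the scale, from 2844 lower and 2120 higher to 1689 lower and 2165 higher with library size alone, and to 2195 lower and 2890 higher with the gene structure trend removed. At an unadjusted p under 0.05, 6 of the 46 passed, against 41.3% of all genes. The median log2 fold change over the 46 was −0.08, against 0.00059 over all genes, with 28 negative and 18 positive. That median of the 46 was −0.00505 without WT replicate 3 (all genes 0.0021) and −0.05 without enhancer KO replicate 3 (all genes 0.0049). It was −0.02 with library size alone (all genes 0.063) and −0.0047 with a trend over gene structure removed (all genes 0.038). In these last settings the median of all genes thus moved up as well. The count of calls also moved with the libraries: it was 3 without WT replicate 2, 3 without WT replicate 3 (2 lower and Rrm2 higher), and 2 when enhancer KO replicate 1 was left out. With enhancer KO replicate 3 left out it was 7 (5 lower, 2 higher). Precision was lower than for the typical gene: the 95% interval had a median half-width of 0.33 on the log2 scale, against 0.17 over all genes. For 31 of the 46 the whole interval lay within 1.5-fold of no difference, and for 42 within 2-fold. The enhancer KO range lay below the WT range for 8 genes and above it for 1, Rrm2, while ranges were apart for 44.8% of all genes (24.3% below, 20.5% above).

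**Figure D1:**
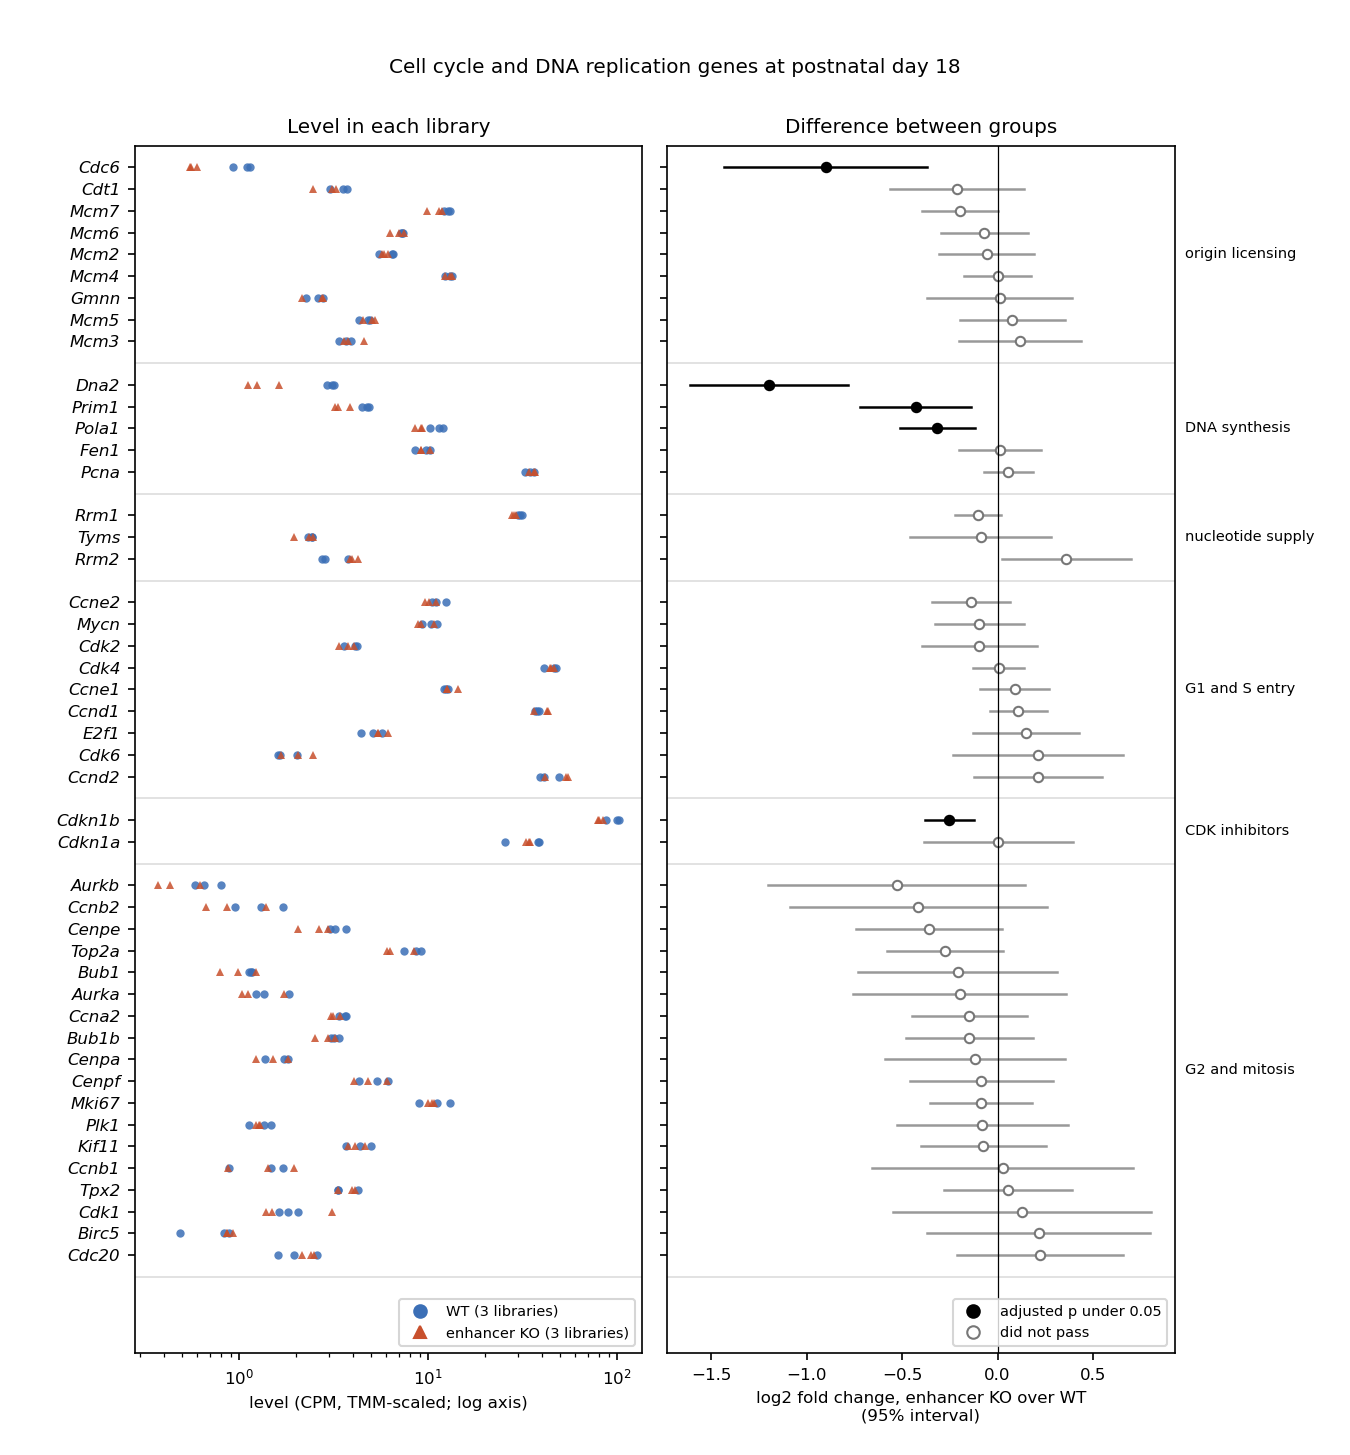
Log2 fold change (enhancer KO over WT) of each of the 46 genes with its 95% interval (right) beside its CPM in each of the 6 libraries on a log axis (left), grouped by role. The 5 genes that passed the adjusted threshold all lie to the left of 0, Dna2 farthest at −1.20, and most other intervals span 0.

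Origin licensing was represented by the 6 subunits of the MCM helicase, by Cdc6 and Cdt1, which load it, and by Gmnn (geminin), which blocks Cdt1 after licensing. Of these 9 genes, Cdc6 fell and 8 did not pass the test, with log2 fold changes from −0.90 to 0.12 and a median of −0.06. Cdc6 (chr11:98907801-98923940, plus strand) was at 1.14, 0.928 and 1.10 CPM in WT and at 0.558, 0.598 and 0.551 CPM in enhancer KO. The groups were well apart, but the reads behind them were few, 19 to 37 in WT and 21 to 23 in enhancer KO. The means were 1.05 ± 0.112 and 0.569 ± 0.0252 CPM (SD, n = 3), a log2 fold change of −0.90 ± 0.245 (SE; 95% interval −1.43 to −0.37; edgeR adjusted p = 0.0150), or 1.87-fold lower. The call was lost without WT replicate 3 (adjusted p = 0.0540), without enhancer KO replicate 1 (adjusted p = 0.0507) and by DESeq2 (adjusted p = 0.0843).

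None of the 6 subunits of the helicase passed the test. Mcm4, the MCM gene with the highest level, was at 12.2, 13.4 and 13.0 CPM in WT and at 13.0, 13.3 and 12.2 CPM in enhancer KO. Its groups overlapped fully, and the 95% interval of its log2 fold change ran from −0.18 to 0.18 (edgeR adjusted p = 0.9999). Mcm6 was at 7.25, 7.33 and 7.22 CPM in WT and at 7.47, 7.02 and 6.28 CPM in enhancer KO, also overlapping (log2 fold change −0.07, adjusted p = 0.657). Mcm7 was at 12.1, 12.7 and 13.1 CPM in WT and at 11.5, 11.9 and 9.81 CPM in enhancer KO, where each value lay under the WT ones (log2 fold change −0.20 ± 0.0913, 95% interval −0.40 to 0.0021, edgeR adjusted p = 0.125). Mcm7 shares exon sequence with Cops6 and Ap4m1 on the opposite strand, and it was called lower when reads of both strands were counted together (adjusted p = 0.0295). Reads on its other strand made up 20.8% of the reads over it. Mcm2, Mcm3, Mcm5, Cdt1 and Gmnn had log2 fold changes of −0.06, 0.12, 0.08, −0.21 and 0.01, with adjusted p from 0.348 to 0.969.

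The 5 genes of DNA synthesis at the fork held 3 of the calls. Pola1 is the catalytic subunit of DNA polymerase alpha and Prim1 the catalytic subunit of primase, which together make the RNA-DNA primers that start each new strand. Pola1 (chrX:93304767-93632155, minus strand) was at 10.3, 11.97 and 11.4 CPM in WT and at 9.12, 8.56 and 9.28 CPM in enhancer KO. The ranges were apart, and the log2 fold change was −0.31 ± 0.0909 (SE; 95% interval −0.51 to −0.12; edgeR adjusted p = 0.0203), 1.24-fold lower. As an X-linked gene it was also read without WT replicate 1, where the log2 fold change was −0.38 (adjusted p = 0.0108). Prim1 (chr10:128015168-128030037, plus strand) was at 4.44, 4.88 and 4.74 CPM in WT and at 3.35, 3.20 and 3.86 CPM in enhancer KO. Again no enhancer KO library reached the WT range, with a log2 fold change of −0.43 ± 0.134 (SE; 95% interval −0.72 to −0.14; edgeR adjusted p = 0.0289), 1.35-fold lower.

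Both primase-polymerase calls were near the threshold. That of Pola1 was lost without WT replicate 2 (adjusted p = 0.0830), WT replicate 3 (0.0716), enhancer KO replicate 1 (0.0580) or enhancer KO replicate 2 (0.0832), and with library size alone as the scale (0.115). That of Prim1 was lost without WT replicate 2 (adjusted p = 0.0860), WT replicate 3 (0.0871), enhancer KO replicate 1 (0.0983) or enhancer KO replicate 2 (0.109), with library size alone (0.103) and by DESeq2 (0.0760). The direction was the same in each case.

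Of the remaining subunits of that complex, Pola2, the accessory subunit of polymerase alpha, fell from 7.04 ± 0.594 to 5.27 ± 0.323 CPM (SD, n = 3; log2 fold change −0.41, edgeR adjusted p = 0.0164). Its call was lost with library size alone (adjusted p = 0.0678) and without WT replicate 2 (0.0568), WT replicate 3 (0.0737), enhancer KO replicate 1 (0.0661) or enhancer KO replicate 2 (0.0570). Prim2, the large subunit of primase, was at 7.87 and 8.22 CPM (log2 fold change 0.07, adjusted p = 0.679). Of the 4 subunits, 3 passed the test in the lower direction. Prim2 and Pola2 were singled out after their values were seen, as the partners of Pola1 and Prim1.

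Dna2 (chr10:62947026-62974185, plus strand) encodes a nuclease and helicase that trims long flaps on Okazaki fragments and resects DNA ends at breaks and stalled forks. It was counted at 101, 65 and 99 reads in WT and at 47, 43 and 68 reads in enhancer KO, which are 3.11, 3.17 and 2.93 CPM against 1.25, 1.12 and 1.63 CPM. The lowest WT library stood well above the highest enhancer KO library. The means of 3.07 ± 0.127 and 1.33 ± 0.266 CPM (SD, n = 3) gave a log2 fold change of −1.20 ± 0.189 (SE; 95% interval −1.61 to −0.78; edgeR adjusted p = 0.000620), 2.29-fold lower. This call held under each of the 16 alternatives run, with adjusted p from 4.97e-05 to 0.00397. Fen1, the flap endonuclease that handles the short flaps on the same substrate, was at 8.51, 10.3 and 9.68 CPM in WT and at 9.14, 9.21 and 10.2 CPM in enhancer KO. Its groups overlapped (log2 fold change 0.01, 95% interval −0.20 to 0.23, adjusted p = 0.934). Pcna, the sliding clamp that ties polymerases and Fen1 to the DNA, was at 32.4, 34.5 and 36.2 CPM in WT and at 34.0, 36.8 and 36.5 CPM in enhancer KO, again overlapping (log2 fold change 0.06 ± 0.0594, 95% interval −0.07 to 0.19, adjusted p = 0.513). Per exon length (TPM, reads per kilobase of exon scaled to a common total), Pcna had a mean level of 61.3 TPM, Fen1 16.4, Pola1 4.80, Prim1 4.42 and Dna2 1.57, so that the 3 called genes were the lowest of the 5.

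The gene Dna2 lies on the same chromosome and strand as Atoh7 (chr10:63099651-63101279), whose start is 152.6 kb downstream of the start of Dna2, and where the deleted enhancer lies is not given in the labels. Atoh7 was at 1.94, 2.05 and 2.13 CPM in WT and at 0.744, 0.858 and 0.695 CPM in enhancer KO (log2 fold change −1.41 ± 0.205, edgeR adjusted p = 0.000353). Between the start of Dna2 and that of Atoh7, Rufy2, which begins 6037 bases after the end of Dna2, was at 69.3, 72.9 and 69.0 CPM in WT and at 42.2, 43.5 and 46.7 CPM in enhancer KO. Its ranges were far apart (log2 fold change −0.67 ± 0.0510, adjusted p = 3.38e-06). Hnrnph3, an RNA-binding protein gene that overlaps the end of Rufy2 on the other strand, went from 18.9, 19.2 and 19.5 CPM to 12.02, 13.3 and 13.8 CPM (log2 fold change −0.56 ± 0.0741, adjusted p = 0.000187).

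On the side of Dna2 away from Atoh7 the 2 nearest genes tested did not fall. Slc25a16, a mitochondrial carrier gene that ends 527 bases before Dna2 starts, was at 22.7, 22.6 and 24.6 CPM in WT and at 26.1, 26.3 and 28.5 CPM in enhancer KO. It rose (log2 fold change 0.21 ± 0.0648, edgeR adjusted p = 0.0263), a call lost without WT replicate 1 (adjusted p = 0.0622), WT replicate 2 (0.0728), enhancer KO replicate 2 (0.0512) or enhancer KO replicate 3 (0.0862). Tet1, the methylcytosine dioxygenase gene beyond it, was at 113 and 110 CPM on average and its groups overlapped (log2 fold change −0.04 ± 0.0461, adjusted p = 0.507). Farther out on that side Ccar1 fell (log2 fold change −0.31), as did Snord98, a small nucleolar RNA gene inside it (−1.79, adjusted p = 0.00765), a larger fold than that of Dna2 or Atoh7 on 64 reads over all 6 libraries. Beyond Atoh7, Herc4 (−0.24) and Sirt1 (−0.42) also fell. These 4 genes were named after their values were seen. Pbld2, between Dna2 and Atoh7 (−0.41, edgeR adjusted p = 0.367), and Mypn, next past Atoh7 (0.48, adjusted p = 0.177), did not pass. Nor did Dnajc12 and Ctnna3 past Sirt1, or any gene tested beyond Ccar1 out to 500 kb. Of all genes tested, 17.9% were called lower and 13.4% higher. The part of position in the difference of Dna2 was not tested.

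**Figure D2:**
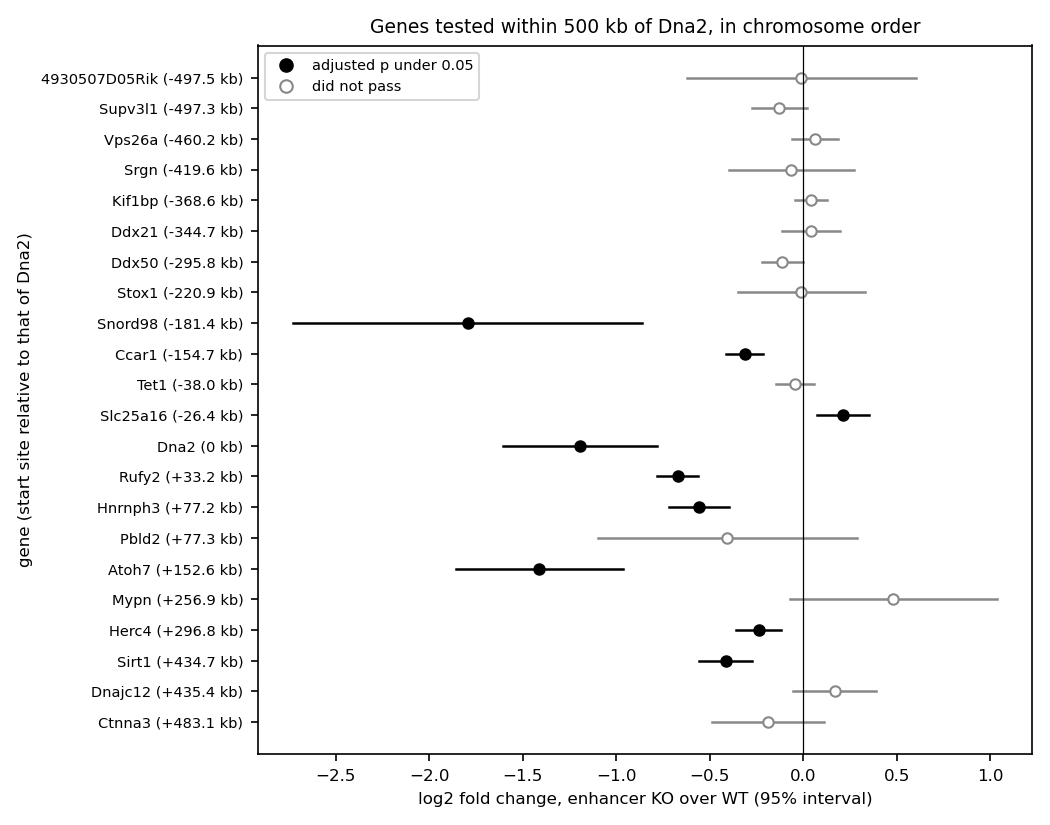
Log2 fold change (enhancer KO over WT) with 95% interval of the genes tested within 500 kb of Dna2, in chromosome order, with the distance of each start from that of Dna2 in kb. Filled points passed the adjusted threshold: Dna2 (−1.20), Rufy2 (−0.67), Hnrnph3 (−0.56) and Atoh7 (−1.41) lie to the left of 0, and so do Ccar1, Herc4, Sirt1 and the small RNA gene Snord98 (−1.79), while Slc25a16 (0.21) lies to the right. Tet1 (−0.04), with an open point, lies near 0, and the genes not named here have open points too.

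Nucleotide supply was measured through Rrm1 and Rrm2, the large and small subunits of ribonucleotide reductase, and Tyms, thymidylate synthase. None of the 3 passed the edgeR test, and 1 had an unadjusted p under 0.05. Rrm1 was at 30.5, 31.4 and 29.98 CPM in WT and at 29.2, 28.6 and 27.7 CPM in enhancer KO, with ranges apart by a small step (log2 fold change −0.10 ± 0.0547, 95% interval −0.22 to 0.02, adjusted p = 0.184). Rrm2 was at 2.84, 2.73 and 3.76 CPM in WT and at 3.96, 4.26 and 3.86 CPM in enhancer KO, above every WT library (log2 fold change 0.36 ± 0.155, 95% interval 0.02 to 0.70, adjusted p = 0.0999). Without WT replicate 3, the highest of the WT libraries, Rrm2 was called higher (log2 fold change 0.53, adjusted p = 0.0390). The subunits of the one enzyme thus had estimates of opposite sign, a difference that was not itself tested. With the trend over gene structure removed Rrm1 was at 0.020, so its sign was not stable. Tyms was at 2.31, 2.44 and 2.43 CPM in WT and at 2.34, 2.47 and 1.94 CPM in enhancer KO, overlapping (log2 fold change −0.09, adjusted p = 0.733).

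The 9 genes of G1 control, the D and E cyclins with their kinases, E2f1 and Mycn, held no call in either direction. Their log2 fold changes ran from −0.14 to 0.21 with a median of 0.09, 6 of them positive, and the smallest adjusted p was 0.257. For 8 of the 9 the interval lay within 1.5-fold. Ccnd2, a cyclin D of granule precursors, was at 41.0, 38.9 and 49.3 CPM in WT and at 55.2, 53.6 and 41.6 CPM in enhancer KO. Enhancer KO replicate 3 lay inside the WT range and the other 2 above it (log2 fold change 0.21 ± 0.137, 95% interval −0.12 to 0.55, edgeR adjusted p = 0.300). Ccnd1 was at 38.6, 36.6 and 37.6 CPM in WT and at 42.7, 43.0 and 36.1 CPM in enhancer KO, where replicate 3 lay just below the WT range and the other 2 above it (log2 fold change 0.11 ± 0.0687, adjusted p = 0.257). Without enhancer KO replicate 3 both were called higher, Ccnd2 at 0.33 (adjusted p = 0.0208) and Ccnd1 at 0.19 (adjusted p = 0.0251).

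Cdk4, the kinase partner of the D cyclins, was at 40.8, 46.1 and 47.6 CPM in WT and at 46.4, 44.8 and 43.9 CPM in enhancer KO, with groups that overlapped (log2 fold change 0.01 ± 0.0607, 95% interval −0.13 to 0.14, adjusted p = 0.952). Ccne2, which activates Cdk2 at the start of S phase, was at 10.98, 12.5 and 10.5 CPM in WT and at 10.1, 9.60 and 10.98 CPM in enhancer KO, also overlapping (log2 fold change −0.14, adjusted p = 0.300). It shares 609 bases of exon with Ints8 on the opposite strand, and 41.7% of the reads over it were on that other strand. With both strands counted together Ccne2 was called lower, at −0.42 (adjusted p = 0.0218), so its call turned on the strand counted. Ccne1, Cdk2, Cdk6, E2f1 and Mycn had log2 fold changes of 0.09, −0.09, 0.21, 0.15 and −0.10. Per exon length, Cdk4 had the highest mean level of these 9 genes at 58.0 TPM and Cdk6 the lowest at 0.572.

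The 2 inhibitors of cyclin-dependent kinases differed in outcome. Cdkn1b (p27, chr6:134920401-134925513, plus strand), which keeps granule neurons and other postmitotic cells out of the cycle, had the highest level of the 46 genes, per exon length as well as in CPM. It was at 87.6, 100.2 and 102 CPM in WT and at 80.2, 79.0 and 84.2 CPM in enhancer KO, with ranges apart. The means of 96.7 ± 7.90 and 81.1 ± 2.70 CPM (SD, n = 3) gave a log2 fold change of −0.25 ± 0.0580 (SE; 95% interval −0.38 to −0.13; edgeR adjusted p = 0.00640), 1.19-fold lower. The call was lost with library size alone as the scale (adjusted p = 0.0695). The granule neuron markers, 9 of 9 lower, moved in the same direction, and their part in it was not tested. Cdkn1a (p21), a p53 target, was at 25.4, 37.9 and 38.6 CPM in WT and at 32.9, 34.7 and 34.2 CPM in enhancer KO. WT replicate 1 lay below all enhancer KO libraries and the other WT libraries above them, so that the log2 fold change was 0.00 with a 95% interval from −0.39 to 0.39 (adjusted p = 0.990). Without WT replicate 1, Cdkn1a was called lower, at −0.17 (adjusted p = 0.0368).

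The 18 genes of G2 and mitosis held no call. Their log2 fold changes ran from −0.53 to 0.22 with a median of −0.10, 13 of them negative, and the smallest adjusted p was 0.145. At the depth of these libraries the test had less reach here: 9 of the 18 were under 2 CPM, the lowest library of any held 10 reads, and the interval lay within 1.5-fold for 8 and within 2-fold for 16. Mki67, the proliferation marker that coats mitotic chromosomes, was at 8.91, 11.2 and 13.0 CPM in WT and at 10.7, 10.4 and 9.998 CPM in enhancer KO. The enhancer KO libraries lay inside the WT range (log2 fold change −0.09 ± 0.122, 95% interval −0.35 to 0.18, edgeR adjusted p = 0.639). Top2a, the topoisomerase that untangles sister chromatids, was at 7.43, 8.60 and 9.12 CPM in WT and at 6.09, 8.43 and 6.26 CPM in enhancer KO. Enhancer KO replicate 2 lay among the WT libraries and the other 2 below them (log2 fold change −0.27 ± 0.138, 95% interval −0.58 to 0.03, adjusted p = 0.157). Without that library Top2a was called lower, at −0.44 (adjusted p = 0.0308).

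Cenpf, a protein of the kinetochore corona, was at 4.32, 5.37 and 6.13 CPM in WT and at 4.07, 6.03 and 4.80 CPM in enhancer KO, with overlapping groups (log2 fold change −0.09, adjusted p = 0.745). Cenpe, a kinetochore motor, was the gene of the 18 whose ranges were apart, at 3.02, 3.66 and 3.20 CPM in WT and at 2.66, 2.96 and 2.04 CPM in enhancer KO (log2 fold change −0.36, 95% interval −0.74 to 0.02, adjusted p = 0.145). The mitotic kinase Cdk1 showed how far 1 library could move such a gene. It was at 1.82, 2.05 and 1.63 CPM in WT and at 1.38, 3.09 and 1.49 CPM in enhancer KO, with a log2 fold change of 0.13 (adjusted p = 0.790) that became −0.34 without enhancer KO replicate 2. Its cyclin Ccnb1 was at 1.70, 0.879 and 1.48 CPM in WT and at 0.877, 1.95 and 1.41 CPM in enhancer KO, overlapping (log2 fold change 0.03, adjusted p = 0.960). Cdk1, Ccnb1 and Cenpe were singled out after their values were seen.

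The other mitotic genes also missed the threshold. Cyclins Ccna2 and Ccnb2 had log2 fold changes of −0.15 and −0.42, and Cdc20, which activates the anaphase-promoting complex, 0.22. The Aurora kinases Aurka and Aurkb were at −0.20 and −0.53, their partner Birc5 (survivin) at 0.21, and the kinase Plk1 at −0.08. Checkpoint genes Bub1 and Bub1b were at −0.21 and −0.15, the centromeric histone Cenpa at −0.12, the spindle motor Kif11 at −0.07 and the spindle assembly factor Tpx2 at 0.05. Ccna2 shares 510 bases of exon with Exosc9 on the opposite strand, and 63.9% of the reads over it were on that other strand. The share was 25% for Aurka and 15.3% for Plk1. Neither they nor Ccna2 were called under any alternative run.

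Libraries of a group spread more over the mitotic genes than over the S phase genes. The coefficient of variation within a group had a median of 15.8% over mitotic genes, 7.45% over S phase genes and 9.19% over G1 genes. Enhancer KO replicate 2 was the highest enhancer KO library for 10 of the 18 mitotic genes, and WT replicate 3 the highest WT library for 9. For S phase genes WT replicate 2 was the highest WT library in 12 of 17, and WT replicate 1 the lowest in 11. Mitotic genes also had the lower counts, and the part of counting error in their spread was not tested.

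The S phase and mitotic genes were also set against each other as totals, described with no test. The 17 S phase genes summed to 146, 157 and 156 CPM in WT and to 144, 149 and 144 CPM in enhancer KO, or 153 ± 6.37 and 146 ± 2.80 CPM (SD, n = 3). The 18 mitotic genes summed to 51.4, 56.0 and 61.4 CPM in WT and to 48.5, 57.7 and 49.9 CPM in enhancer KO, or 56.3 ± 4.97 and 52.0 ± 4.98 CPM (SD, n = 3). Both sums overlapped between the groups. Without Pcna, the S phase gene of highest CPM, the sum was 113, 123 and 120.3 CPM in WT and 110.2, 112 and 107 CPM in enhancer KO. There each enhancer KO library lay below the WT ones (log2 difference −0.12), so the overlap of the whole sum was gone without Pcna. No other gene was left out in this way. Of all single genes tested, 24.3% had the enhancer KO range below the WT range. The ratio of S phase to mitotic CPM was 2.84, 2.81 and 2.55 in WT and 2.98, 2.58 and 2.88 in enhancer KO, which are 2.73 ± 0.159 and 2.81 ± 0.208 (SD, n = 3) and overlapped as well. The log2 differences in the S phase sum, the mitotic sum and the ratio were −0.07, −0.11 and 0.04. Leaving out 1 library moved that of the S phase sum between −0.11 (without WT replicate 1) and −0.05 (without WT replicate 2), and that of the mitotic sum between −0.19 (without enhancer KO replicate 2) and −0.05 (without WT replicate 3). The ratio moved between −0.0075 (without WT replicate 3) and 0.10 (without enhancer KO replicate 2), and was −0.0034 without enhancer KO replicate 1, so its sign was not stable. Pcna and Rrm1 had the highest CPM of the 17 S phase genes. Dna2, Cdc6 and Prim1 were each under 5 CPM and weigh little in the level of the sum. They take more of its difference, falling from 3.07 to 1.33, 1.05 to 0.569 and 4.69 to 3.47 CPM. Pola1 fell from 11.2 to 8.98 CPM, while the whole sum went from 153 to 146 CPM.

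**Figure D3:**
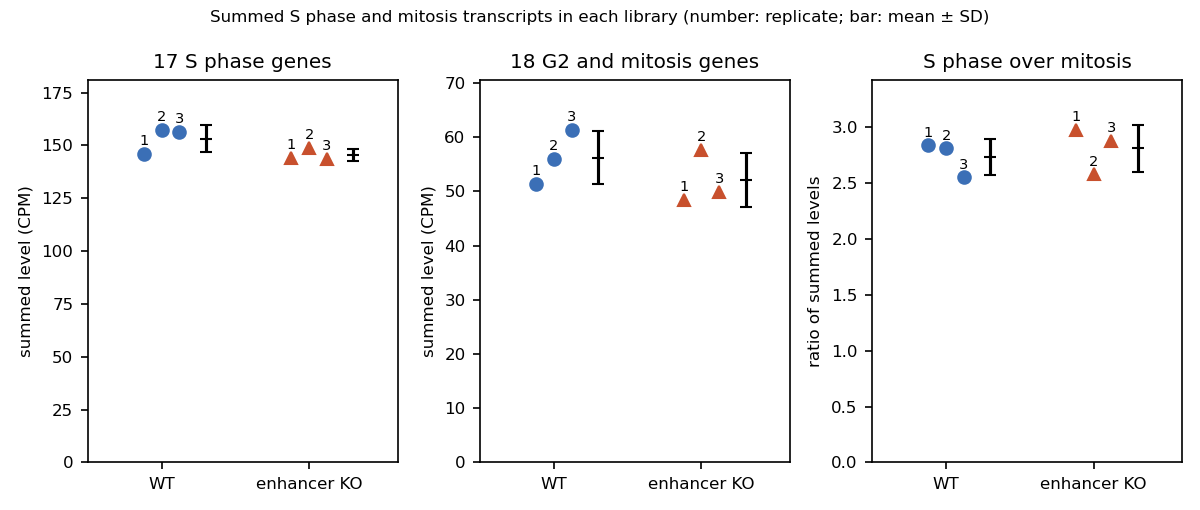
Summed CPM of the 17 S phase genes and of the 18 mitotic genes, and their ratio, in each of the 6 libraries, with group means and SD. WT and enhancer KO libraries overlap in all 3 panels, and the ratio lies between 2.55 and 2.98.

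Other genes of the same pathways were taken from 5 further lists of 158 genes, of which 156 were tested. Of these 22 fell and 3 rose, or 16.0% called, again under the 31.3% of all genes. The 25 calls became 16 or 15 with enhancer KO replicate 1 or 2 left out, and 14 with library size alone. The 42 other replication genes tested held 9 lower and 0 higher calls (21.4%), with a median log2 fold change of −0.08. Of all genes, 17.9% were called lower and 13.4% higher. Cdc7, the kinase that with its activator Dbf4 switches on the loaded MCM helicase, fell from 16.6 ± 0.874 to 7.89 ± 1.36 CPM (SD, n = 3; log2 fold change −1.06 ± 0.115, edgeR adjusted p = 5.05e-05), 2.09-fold lower. Dbf4 itself was at 1.98 and 2.03 CPM (log2 fold change 0.02, adjusted p = 0.953). Orc4, a subunit of the origin recognition complex, fell from 47.1 ± 3.04 to 34.7 ± 2.99 CPM (log2 fold change −0.44, adjusted p = 0.000686), and Dnmt1, which copies DNA methylation behind the fork, from 65.2 ± 2.79 to 51.9 ± 3.59 CPM (log2 fold change −0.33, adjusted p = 0.00112). Orc3, of the same origin complex, fell from 56.6 to 48.4 CPM (log2 fold change −0.23, adjusted p = 0.00545). Its call was lost with library size alone (adjusted p = 0.129) and once a trend over gene structure was removed (0.0562). Besides Pola2, the other lower genes were Mcm10 (log2 fold change −0.95), Wdhd1 (−0.48), Pold1 (−0.41) and Pole2 (−0.99), which all act at the fork and are named to complete the count. Pold1 lost its call with library size alone (adjusted p = 0.0515). The call of Pole2 was lost by DESeq2 (adjusted p = 0.0606) and without WT replicates 1 (0.0799) or 2 (0.113) or enhancer KO replicates 1 (0.0572) or 3 (0.0996).

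End resection and recombination, the process Dna2 shares with other nucleases and helicases, held 4 lower and 0 higher calls among 16 genes. That is 25.0% lower, against 17.9% of all genes, with a median log2 fold change of −0.22. Brca2, a gene of homologous recombination, fell from 9.59 ± 1.18 to 6.77 ± 0.431 CPM (SD, n = 3; log2 fold change −0.50, edgeR adjusted p = 0.00568). Rbbp8 (CtIP), which starts resection with the MRN complex, fell by 0.43 on the log2 scale (adjusted p = 0.0121). Mre11a, the nuclease of that complex, fell by 0.29 (adjusted p = 0.0301), and Wrn, a RecQ helicase that partners Dna2, by 0.20 (adjusted p = 0.0479). The call of Rbbp8 was lost without WT replicate 2 (adjusted p = 0.0535) or enhancer KO replicates 1 (0.0550) or 2 (0.0541). That of Mre11a was lost without WT replicates 1, 2 or 3 or enhancer KO replicates 1 or 2, at adjusted p from 0.0549 to 0.129, with library size alone (0.182), by DESeq2 (0.0880) and with the trend removed (0.0533). That of Wrn was lost in 14 of 16 alternatives, among them without WT replicates 2 or 3 or any enhancer KO replicate (adjusted p from 0.0784 to 0.192). The list thus held 1 lower call without WT replicate 2, enhancer KO replicate 1 or enhancer KO replicate 2, and 2 without WT replicate 3, with library size alone, by DESeq2 or with the trend removed. Blm, the other RecQ helicase that works with Dna2, had a log2 fold change of −0.33 (adjusted p = 0.0564) and Exo1, the nuclease of the parallel resection route, 0.27 (adjusted p = 0.541), both chosen after their values were seen.

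Of 59 other mitotic genes 4 fell and 0 rose (6.78%), with a median log2 fold change of −0.12. Ncapd2, a condensin subunit, fell from 31.2 ± 1.54 to 23.7 ± 0.851 CPM (SD, n = 3; log2 fold change −0.40, edgeR adjusted p = 0.000509), and Cenpt, a protein of the inner kinetochore, from 10.8 ± 0.606 to 7.89 ± 0.361 CPM (log2 fold change −0.45, adjusted p = 0.00260). Smc4, another condensin subunit, fell by 0.24 on the log2 scale (adjusted p = 0.0384) and Cdc25b, a phosphatase that activates Cdk1, by 0.38 (adjusted p = 0.0393). Smc4 lost its call without WT replicates 2 or 3 or enhancer KO replicates 1 or 2, at adjusted p from 0.0759 to 0.167, and also with library size alone (0.197), by DESeq2 (0.0723), without Rn45s (0.0530) and with the trend removed (0.0890). Cdc25b lost it without WT replicates 1 or 3 or enhancer KO replicates 2 or 3, at adjusted p from 0.0670 to 0.145, with library size alone (0.0900) and by DESeq2 (0.0511). The count of lower calls was 10 when both strands were counted together, and 2 with library size alone, by DESeq2, without WT replicate 3 or without enhancer KO replicate 2.

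Of 25 other genes of cycle control tested, 4 fell and 0 rose (16.0%), with a median log2 fold change of 0.02. Rb1, the retinoblastoma protein that restrains E2F factors, fell from 74.4 ± 4.59 to 60.0 ± 1.19 CPM (SD, n = 3; log2 fold change −0.31, edgeR adjusted p = 0.000793). E2f4, the repressor E2F of the DREAM complex, fell by 0.25 on the log2 scale (adjusted p = 0.00862), a call lost with library size alone (0.145). Rbl1 (p107), a pocket protein of the same complex, fell by 0.41 (adjusted p = 0.0264), and Skp2, the ubiquitin ligase subunit that marks Cdkn1b for destruction, by 0.38 (adjusted p = 0.0355). Rbl1 lost its call without WT replicates 1, 2 or 3 or enhancer KO replicates 1 or 2, at adjusted p from 0.0520 to 0.0942, with library size alone (0.117) and by DESeq2 (0.0792). Skp2 lost it without WT replicates 1 or 2 or enhancer KO replicates 1, 2 or 3, at adjusted p from 0.0517 to 0.138, with library size alone (0.112), by DESeq2 (0.0687) and with the trend removed (0.0796). The lower calls were 1 with library size alone, and 2 by DESeq2 or without any 1 of WT replicates 1 and 2 and enhancer KO replicates 1 and 2. Higher calls numbered 2 with both strands counted, with the trend removed or without enhancer KO replicate 3, and 1 by DESeq2 or without Rn45s.

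The last list held 14 genes, p53 itself (Trp53, not called) and its targets, among which Cdkn1a belongs by function. Of these 3 rose and 1 fell (28.6%), near the share of all genes, with a median log2 fold change of 0.05. Zmat3, an RNA-binding protein, rose from 176 ± 8.01 to 215 ± 5.33 CPM (SD, n = 3; log2 fold change 0.29, edgeR adjusted p = 0.000441), and Mdm2, the ligase that turns over p53, from 46.3 to 55.7 CPM (log2 fold change 0.26, adjusted p = 0.00547). Aen, a nuclease, rose from 12.8 to 15.3 CPM (log2 fold change 0.25, adjusted p = 0.0164), a call lost without enhancer KO replicate 2 (0.0649). Bbc3 (Puma), a promoter of apoptosis, fell from 8.29 to 6.73 CPM (log2 fold change −0.30, adjusted p = 0.0317). That call was lost without WT replicates 2 or 3 or any enhancer KO replicate, at adjusted p from 0.0606 to 0.102, with library size alone (0.189), with no filter (0.0543) and by DESeq2 (0.0985).

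**Figure D4:**
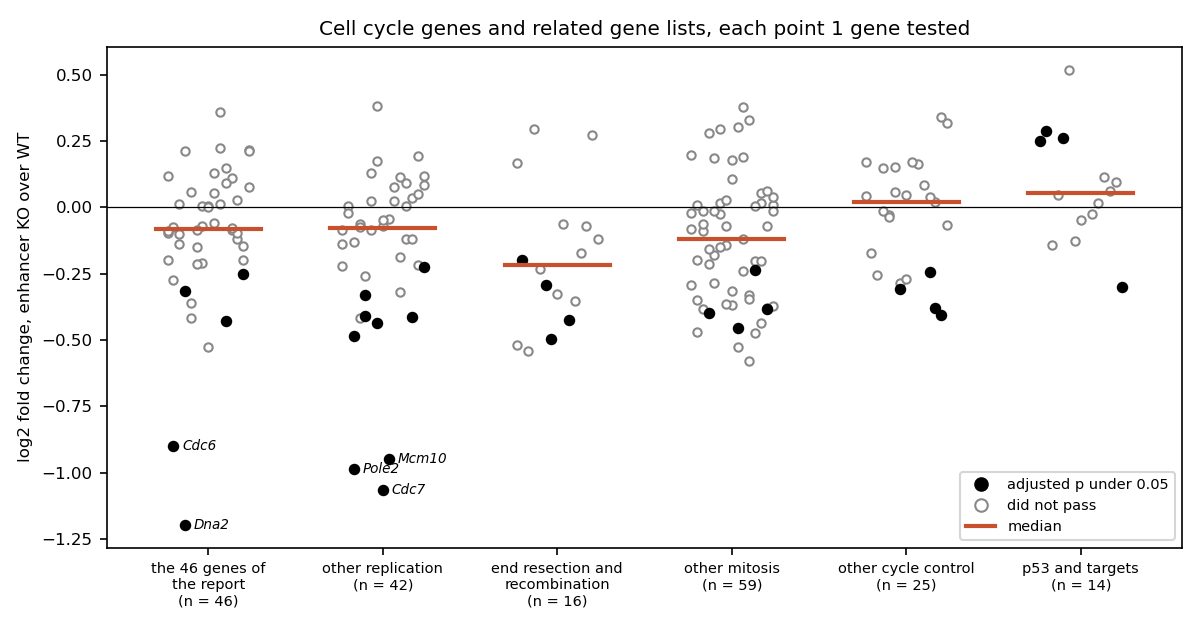
Log2 fold change (enhancer KO over WT) of the 46 genes and of each gene tested in the 5 further lists, with the median of each as a line and called genes as filled points. Called genes lie below 0 except for 3 p53 targets, and the medians lie between −0.22 and 0.05.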

How the data were processed

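Trimmomatic, STAR and the mm10 build were used by the authors, per the submitters' processing notes. Versions and annotation: not given in the sources used here. Whole-number counts per gene were deposited without normalization, of which the column of each gene's own strand was used, the opposite strand holding 1.62% to 1.88% of stranded reads. The 4 rows that name no gene stayed out of library sizes and tests. Genes were filtered with filterByExpr and compared with edgeR 4.0.16 in R 4.3.3 (TMM scaling, robust quasi-likelihood fit, two-sided, Benjamini-Hochberg adjustment over 15846 genes, threshold 0.05). The code of the fit was run on counts simulated from its own dispersion estimates. Such counts do not test whether its scaling suits these data. Standard errors were derived from the fold change and the F statistic. Exon lengths and positions came from GENCODE mouse release 21 on the same build, where 23334 symbols matched, and promoter windows from RefSeq on GRCm38.p6.

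The genes described and all lists were chosen with earlier results of these data known. Named in full were the members past the threshold, Dna2, the 3 members of each role with the highest CPM, up to 4 called genes of each pathway list with the smallest p, Atoh7, and the genes on each side of Dna2 out to the second tested. The alternatives comprised scaling by RLE or by library size alone, 2 other filters, a replicate block, the unstranded column, DESeq2 1.42.0, limma-voom (limma 3.58.1), removal of Rn45s, removal of a trend over gene structure (mgcv 1.9.3) and leaving out each library.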

Additional observations from a re-analysis of the deposited data

How the results depend on the processing

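With library size alone as the scale, 1689 genes of all tested fell against 2844, 2 of the 46 genes were called (2 lower) against 5, the pathway lists held 14 calls against 25, and the log2 differences in the S phase and mitotic sums were −0.0087 and −0.048 against −0.07 and −0.11. DESeq2 called 3 of the 46 (3 lower). Leaving out each library in turn gave 2 to 7 calls among the 46, 2 to 6 lower and 0 to 2 higher, and 15 to 23 in the pathway lists. The replicate numbers did not pair the libraries (correlations of same-numbered deviations 0.053, −0.039 and −0.080), and the fit with a replicate block called 4 of the 46, Prim1 being lost at adjusted p = 0.0511. It also ended the calls of Mre11a (0.0583), Wrn (0.0815), Rbl1 (0.0542) and Bbc3 (0.0606). No called gene among the 46 changed sign under any alternative run. Estimates near 0 did: Mcm4 was 0.0077 with RLE scaling, 0.063 with library size alone, 0.010 with no filter, 0.020 unstranded, 0.0079 by DESeq2, 0.0035 by voom, 0.018 without Rn45s and 0.0048 with the trend removed. With library size alone Mcm2 was 0.0046 and Tet1 0.019. With the trend removed Mcm2 was 0.022, Gmnn −0.033, Rrm1 0.020, Mki67 0.017, Cenpf 0.090, Kif11 0.011 and Tet1 0.11. Ccnb1 was −0.0055 with the block and −0.019 by voom, and Cdkn1a −0.00037 with at least 1 CPM required. Without 1 library the log2 fold change ran from −0.038 to 0.038 for Mcm4, −0.076 to 0.13 for Gmnn, −0.061 to 0.078 for Fen1, −0.16 to 0.010 for Tyms, −0.060 to 0.056 for Cdk4, −0.17 to 0.12 for Cdkn1a, −0.23 to 0.060 for Mki67, −0.27 to 0.28 for Ccnb1, −0.34 to 0.34 for Cdk1, −0.47 to 0.0035 for Aurka, −0.16 to 0.012 for Plk1, −0.27 to 0.017 for Cenpa, −0.25 to 0.050 for Cenpf, −0.16 to 0.044 for Kif11 and −0.015 to 0.19 for Tpx2. The cause of these changes was not tested. Cdc6, at 19 to 37 reads a library, was not tested where at least 1 CPM was required.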
